A study of Mus musculus with 3 samples.

Results

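The 158 array probes described here detect well expressed noncoding RefSeq transcripts of mouse cardiac myofibroblasts, the contractile, collagen-producing cells of the injured heart. The probes were selected on measured signal. A probe was taken when its transcript accession began with NR_, RefSeq's prefix for noncoding RNA, when the scanner software called it well above background on each of the 3 arrays, and when its processed signal reached 1000 units on at least 1 array. Neat1, which had 1 probe past these limits, was left out. The 158 probes belong to 127 transcript accessions, out of 1215 NR_ probes for 1078 accessions and 55665 probes in all. A total of 460 NR_ probes were well above background on all 3 arrays, and 301 of them never reached 1000 units. Of the 158 probes, 120 were at 1000 units or more on every array, and the other 38 passed through 1 or 2 arrays only. Because measured signals chose the probes, every level and difference below is a description.

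The cells came from hearts of male C57BL/6J mice, 3 days after the left anterior descending artery had been tied off for good, and were the CD45-negative fraction of a magnetic sort; no group had an unoperated heart. The labels give an age of 8 weeks in one field and 10 weeks in another. Per the study's methods, adherent cells were grown for 7 days on plastic, non-adherent cells then spent 7 days in suspension on ultra-low attachment plates, and re-adherent cells were put back on plastic for a further 7 days. Each state was measured on 1 array, so the spread between cultures is unknown, no test of a difference between states was possible, and the state of the cells cannot be told apart from the culture or array that carried it.

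Noncoding RNAs do their work as RNA. Some are short-lived hosts: the introns of small nucleolar RNA (snoRNA) host genes release snoRNAs, which guide the chemical modification and cutting of ribosomal RNA, while the spliced host transcript is often degraded in the cytoplasm when it is translated. Others, such as Malat1, stay in the nucleus, and a group of imprinted RNAs, such as Meg3, is made from only 1 parental copy of its locus. Transcribed pseudogenes, the commonest kind among the probes, are copies of genes that have lost their coding function and can resemble the parent transcript closely.

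Levels are given as the processed signal, a linear, background-subtracted brightness, and differences as log2 of that signal after subtracting each array's 75th percentile, which was 651 units on the adherent, 697 on the non-adherent and 541 on the re-adherent array. The scanner software's own error gave a median technical error of 0.20 (log2) for a difference between 2 arrays; it covers the reading of the spot and not the spread between cultures. By the RefSeq table used here (GRCm38.p6), 134 of the 158 probes had a gene symbol: 68 belonged to transcribed pseudogenes, 56 to long noncoding RNAs, 4 to snRNA genes, 3 to noncoding transcripts of protein-coding genes, 2 to rRNA genes and 1 to the RNase MRP RNA gene. The other 24 probes, of 17 accessions, had no match and are named by accession.

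The myofibroblast label was borne out by signal on the adherent array, where all 5 listed myofibroblast markers were well above background. Their median difference in suspension was -6.64 (log2), with Postn (-0.12) the exception, and it was 6.57 on re-adhesion. Other cell types also showed. Cd68, 1 of the 12 macrophage markers, gave no value, and whether it lacked a matched probe or its probes were dim was not settled. The other 11 were measured and well above background on every array. Of these 11, 10 were higher in suspension, with a median difference of 2.67. Their summed level, in multiples of the array's 75th percentile, was 167 on the adherent, 947 on the non-adherent and 329 on the re-adherent array. All 8 endothelial markers were measured on the adherent array; 6 were higher in suspension, and their median on re-adhesion was -1.77 against the adherent array, where Tie1 and Emcn were no longer well above background. The part of these cells in the differences below was not tested, and in a mixed culture fewer cells of a type and less RNA per cell cannot be told apart.

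In suspension the noncoding probes leaned towards lower signal. Of these, 68 were pseudogene probes, and whether those read the pseudogene or the parent transcript was not tested. The median difference of the 158 probes, non-adherent against adherent, was -0.36 (log2), while the median of the 9922 RefSeq-named probes that passed the same signal rule was -0.11. Of the 158, 38 probes (24.1%) were lower by over 2-fold, while 14 (8.86%) were higher by that much. Among the 9922 probes, 14.1% passed 2-fold downwards and 16.2% upwards, 30.3% in either direction. The low side was thus the fuller one among the noncoding probes and the high side among all RefSeq probes. Over 4-fold, 6 noncoding probes were lower and 5 higher, against 4.06% and 7.2% of the background (11.3% in either direction).

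On re-plating the direction turned. Re-adherent against non-adherent, the noncoding median was 0.44 and the background median 0.20. Here 40 noncoding probes were over 2-fold higher, which is 25.3% against 16.3% of the background, and 13 were over 2-fold lower, which is 8.23% against 13.2% (29.5% of the background in either direction). Over 4-fold, 6 noncoding probes were higher and 7 lower, against 4.22% and 4.53% of the background (8.75% in either direction). The 2 steps share the non-adherent array, so a low reading on it would raise one count and the other. With the data normalized by quantiles, the noncoding medians were -0.15 in suspension and 0.13 on re-adhesion. The balance of the second step depended on the scaling: with no scaling between arrays, 13.9% of the noncoding probes were over 2-fold lower and 10.1% higher, against 19.5% and 9.15% of the background, and with quantile normalization 10.8% and 14.6%, against 15.5% and 12.5%.

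Against the first adherent state, a set of noncoding transcripts was low in re-adherent cells. The median difference was 0.16 for the noncoding probes and 0.14 for the background, while 13 noncoding probes, 8.23%, were over 2-fold lower, against 1.77% of the background, and 3 were over 2-fold higher, against 2.66% (4.43% in either direction). Over 4-fold, 2 noncoding probes, those of NR_001592 and 1 of NR_002840, were lower and 0 higher, against 0.312% and 0.191% of the background (0.504% in either direction). Scaled to the spike-in RNAs, 15.8% of the noncoding probes were over 2-fold lower and 0.633% higher, against 5.64% and 0.645% of the background. Of the 120 probes at 1000 units or more on all 3 arrays, 3 were over 2-fold lower, which is 2.5% against 0.594% of background probes held to the same limit. The 13 probes were those of Meg3 (both), Mirg, Mir22hg, Malat1, Dancr, Snhg1, Snhg7, Slc2a4rg-ps and the accessions NR_001592, NR_002840 (2 of its 3 probes) and NR_002860 (1 of its 3). Of these 13, 9 were already over 2-fold lower in suspension, and the probes of Malat1, NR_001592, NR_002860 and Slc2a4rg-ps were not. The 3 higher probes belonged to Rnu3b1, 3300005D01Rik and Gpr137b-ps.

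**Figure D1:**
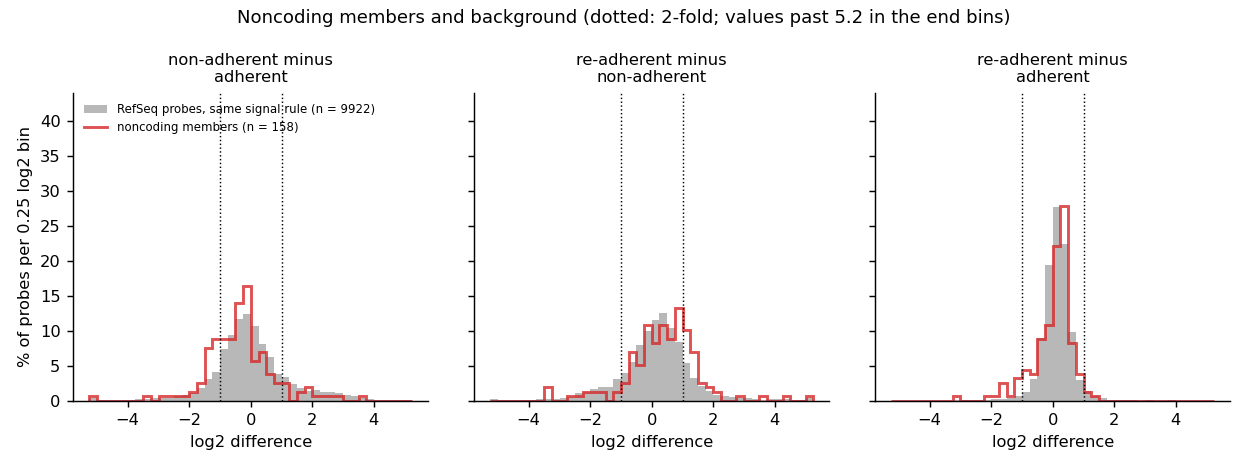
Log2 differences between each pair of arrays (x axis) as the percentage of probes per bin (y axis), for the 158 noncoding probes (red line) and the 9922 RefSeq-named probes passing the same signal rule (grey); dotted lines mark 2-fold. The red line stands over the grey to the left of zero in suspension, to the right on re-adhesion, and leaves a tail below the 2-fold line between re-adherent and adherent cells, where 13 probes lie.

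Taken by their course over both steps, 88 of the 158 probes, 55.7%, stayed within 2-fold in each step, as did 63.9% of the background. A further 26 probes, 16.5%, were over 2-fold lower in suspension and over 2-fold higher again on re-adhesion, against 11.9% of the background. Another 11 probes, 6.96%, were over 2-fold lower in suspension and then moved by less than 2-fold, against 2.25%. These were probes of Dancr, Snhg1, Snhg7, Snhg12, Snhg16, Meg3 (both), Mir22hg, 2810408I11Rik and NR_002840 (2 of 3). The remaining NR_002840 probe was over 2-fold lower in each step, a course that 0.0101% of the background showed. The opposite course, higher in suspension and lower on re-adhesion, was rarer among noncoding probes: 8 of them, 5.06%, followed it, against 11.9% of the background. They detected AU022793, NR_033803, Gdap10, Pisd-ps3, and H2-K2 and Gpr137b-ps with a pair of probes each. A total of 12 probes were thus over 2-fold lower in suspension without a 2-fold return. Some of them came back in part: 2810408I11Rik rose by 0.84 (log2) on re-adhesion and 1 probe of NR_002840 by 0.77. Of the 12, 5 were at 1000 units or more on all 3 arrays, 4.17% against 1.97% of the background held to that limit.

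**Figure D2:**
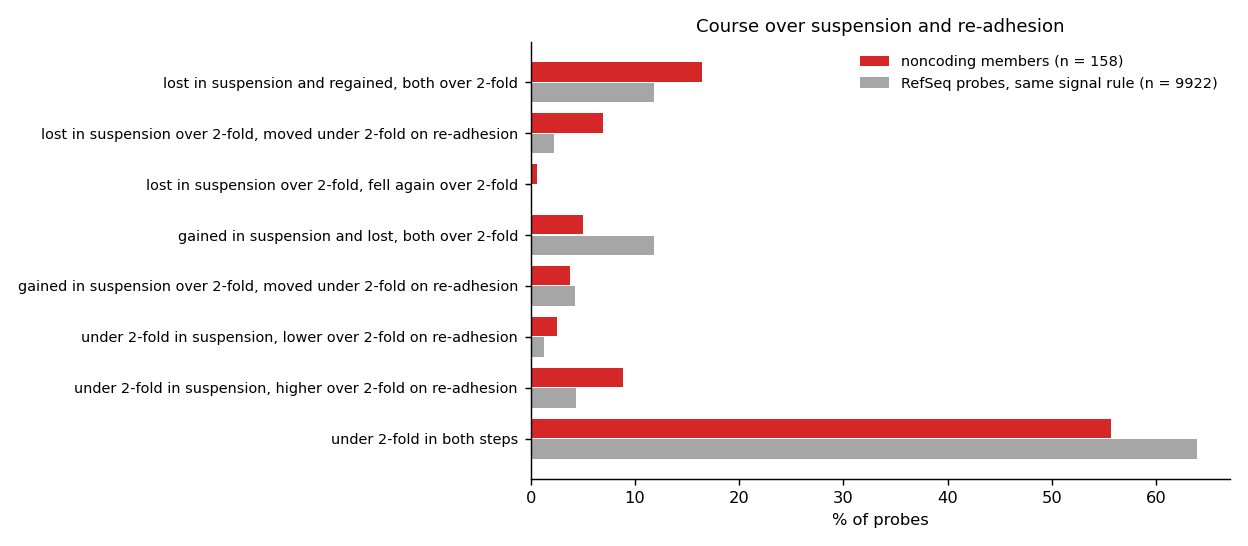
Percentage of probes (x axis) that followed each course over suspension and re-adhesion (y axis), for the 158 noncoding probes (red) and the 9922 background probes (grey). Transcripts that were lower in suspension and moved under 2-fold on re-adhesion made up 6.96% of noncoding probes and 2.25% of the background, and those gained in suspension and lost again 5.06% and 11.9%.

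The snoRNA hosts made up the largest named group. Of 33 listed host genes, 12 were on the array under a matched noncoding accession and 10 had a probe among the 158. In suspension 9 of the 10 were lower, 7 of them over 2-fold, with a median of -1.23 (log2), ranging from -1.88 to 0.45. In re-adherent cells 3 of the 10 had come back by over 2-fold, beside 16.3% of the background. That count was 1 with no scaling and 2 with quantile normalization, spike-in scaling or the authors' deposited values. It was 3 under the other settings. Against adherent cells the median of the 10 hosts was then -0.80, and 3 were over 2-fold lower. The share of background probes that were over 2-fold lower was 14.1% in suspension and 1.77% in re-adherent cells. Under spike-in scaling and with no scaling, 6 hosts were over 2-fold lower in re-adherent cells, with medians of -1.28 and -1.06. The 17 accessions without a symbol could not be placed in the list. Because the hosts were listed with earlier results of these arrays known, the counts describe the list and are no test of it.

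Of the 7 hosts that were over 2-fold lower in suspension, 5 did not rise by over 2-fold on re-adhesion. Among them, Snhg1 and Snhg7 passed the signal rule through the adherent array only, so a high signal there was a condition of their entry. Dancr, a host whose spliced RNA is also studied for its part in cell differentiation, read 3688 units in adherent, 1070 in non-adherent and 1116 in re-adherent cells. Its difference was -1.88 in suspension and 0.42 on re-adhesion. Snhg1, whose introns encode a row of box C/D snoRNAs, read 1726, 575 and 663 units, which gave -1.68 and then 0.57. In both, the adherent array stood apart from the other arrays. Snhg7 read 1143, 452 and 410 units in the same order. Snhg12 read 5210, 2339 and 2474 units. Snhg16 read 4847, 2264 and 2309 units. In each of these 5 genes the unscaled non-adherent and re-adherent signals lay close together and under the adherent signal. After scaling, all 5 rose on re-adhesion by less than 2-fold, from 0.23 (Snhg7) to 0.57 (Snhg1), more than the technical error of 0.20. Of these, Dancr (-1.46), Snhg7 (-1.21) and Snhg1 (-1.11) were over 2-fold lower in re-adherent than in adherent cells, while Snhg12 (-0.81) and Snhg16 (-0.80) passed 2-fold only under spike-in scaling (both -1.29) and with no scaling (both -1.07). A second, dimmer Snhg16 probe outside the 158 read 500, 257 and 137 units.

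The other 2 of the 7, Snhg6 and Snhg18, returned, as did 2410006H16Rik, which was just under 2-fold lower in suspension (-0.97). Snhg6, which hosts box C/D snoRNA U87, read 25584 units in adherent, 10378 in non-adherent and 21563 in re-adherent cells. Snhg18 read 4830, 2287 and 4560 units, and 2410006H16Rik read 6778, 3714 and 5935 units. All 3 were lowest in suspension, and their re-adherent levels differed from the adherent ones by 0.02, 0.18 and 0.07 (log2), less than the technical error of 0.20. Snhg3 read 9864, 6726 and 4753 units. It was less than 2-fold lower in suspension (-0.65), moved by -0.14 on re-adhesion and ended at -0.79, near Snhg12 and Snhg16. Snhg10 was the exception in direction, with 753, 1098 and 725 units, highest in suspension by 0.45.

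**Figure D3:**
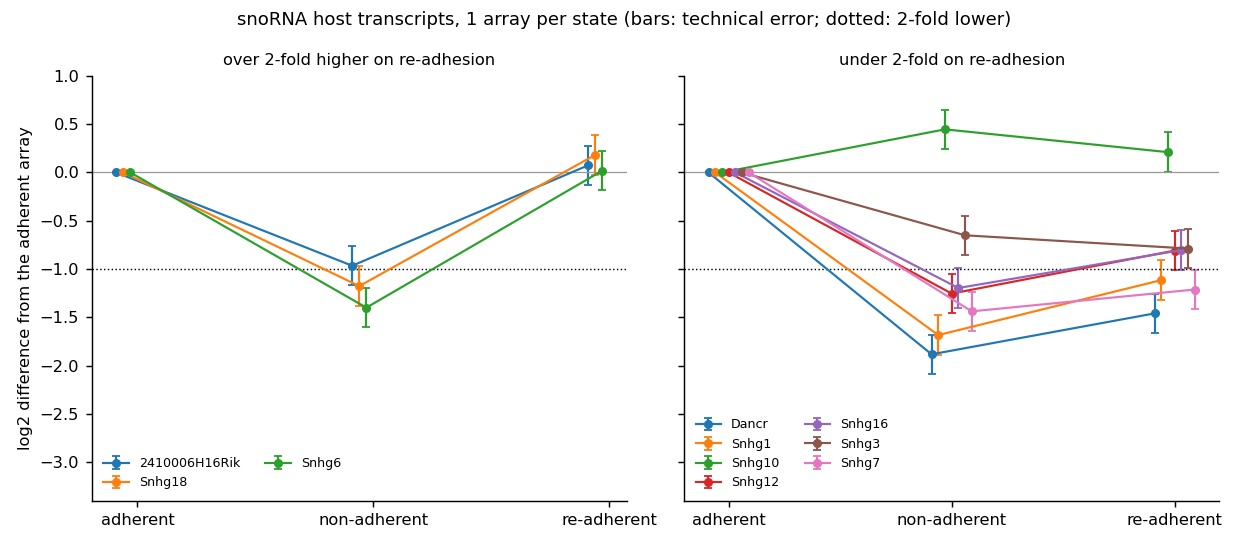
Difference of each of the 10 snoRNA host transcripts from the adherent array (y axis, log2) by the state of the cells (x axis), with the technical error as bars and 1 array per state. The 3 hosts at left return to zero, while Dancr, Snhg1, Snhg7, Snhg12 and Snhg16 at right stay between -1.46 and -0.80 in re-adherent cells.

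Of the listed snoRNA hosts, 7 protein-coding genes were measured with 11 probes. All 11 were lower in suspension, 6 of them over 2-fold, and 9 were higher on re-adhesion, 4 of them over 2-fold; both Eif4a2 probes were not, at -0.01 and -0.47. Nop56, a core protein of box C/D particles and itself a host, had 2 probes at -1.77 and -1.68 in suspension and at 1.61 and 1.22 on re-adhesion. Gnl3, a nucleolar GTP-binding protein, was -1.17 and then 0.72, and Cct6a, a chaperonin subunit, was -1.40 and then 1.49. The proteins that form or assemble snoRNA particles were measured with 15 probes for 11 genes. In suspension 13 probes were lower, 6 of them over 2-fold, with a median of -0.77, beside a background share of 14.1%. On re-adhesion all 15 were higher, 7 of them over 2-fold, beside 16.3%. Dkc1, the pseudouridine synthase of box H/ACA particles, was -2.28 in suspension and 1.91 on re-adhesion. Nop58, the partner of Nop56, was -1.91 and 1.57, and Gar1 was -1.37 and 1.17. Fbl, the methyltransferase of box C/D particles, was -0.68 and 0.80, and Nop10, a small H/ACA protein, was -0.33 and 0.62. Both probes of Shq1, an assembly factor, were the ones not lower in suspension, at 0.17 and 0.04. In re-adherent cells the 15 probes lay between -0.46 and 0.42 of the adherent level.

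The start regions of the hosts are shown because genes of this class, like those of ribosomal proteins, are known for transcripts that open in a run of pyrimidines. RefSeq gave a start window for 41 of the 109 genes named among the probes, and for 9 of the 10 hosts. Each line holds 50 bases before to 50 bases after the annotated start, 5′ to 3′ on the gene's strand (GRCm38.p6), and capitals mark the longest unbroken run of C and T that touches the 10 bases on either side of the start, where it has at least 7 letters.
Snhg1, chr19:8723437-8723536, plus strand: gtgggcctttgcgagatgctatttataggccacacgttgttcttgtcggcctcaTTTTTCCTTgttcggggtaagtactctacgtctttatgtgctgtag
Snhg12, chr4:132308628-132308727, plus strand: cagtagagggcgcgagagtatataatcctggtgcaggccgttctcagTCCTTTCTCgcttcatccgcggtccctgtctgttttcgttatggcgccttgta
Snhg16, chr11:116671610-116671709, plus strand: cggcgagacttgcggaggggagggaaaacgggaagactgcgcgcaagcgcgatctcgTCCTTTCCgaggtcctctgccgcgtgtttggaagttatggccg
Snhg10, chr12:105032230-105032329, minus strand: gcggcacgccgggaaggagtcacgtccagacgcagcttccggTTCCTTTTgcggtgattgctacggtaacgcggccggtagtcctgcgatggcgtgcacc
Snhg18, chr15:32244613-32244712, minus strand: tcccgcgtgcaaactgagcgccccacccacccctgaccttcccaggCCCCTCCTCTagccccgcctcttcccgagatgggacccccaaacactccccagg
2410006H16Rik, chr11:62602827-62602926, plus strand: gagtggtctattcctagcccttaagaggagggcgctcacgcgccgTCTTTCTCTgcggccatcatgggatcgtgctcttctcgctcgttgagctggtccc
Snhg7, chr2:26640195-26640294, minus strand: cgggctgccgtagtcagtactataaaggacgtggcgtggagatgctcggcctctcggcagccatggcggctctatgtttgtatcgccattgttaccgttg
Snhg3, chr4:132353637-132353736, minus strand: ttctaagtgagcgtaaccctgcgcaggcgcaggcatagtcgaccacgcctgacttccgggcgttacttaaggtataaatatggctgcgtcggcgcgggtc
Dancr, chr5:74093010-74093109, plus strand: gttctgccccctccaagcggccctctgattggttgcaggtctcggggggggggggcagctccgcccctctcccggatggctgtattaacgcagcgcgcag

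Such a run touched the 10 bases on either side of the start in 6 of the 9 host windows. The same held for 11 of the 39 windows of long noncoding RNA genes among the probes, which is 28.2%, and for 19.5% of all 27025 gene windows. Only the runs of Snhg12, Snhg18 and 2410006H16Rik spanned the annotated start. That of Snhg10 lay before it, and those of Snhg1 and Snhg16 after it. The run length was set after the windows had been seen, and the share describes these 9 genes. The run was present in hosts of both courses (Snhg1, Snhg12 and Snhg16; Snhg18 and 2410006H16Rik) and in Snhg10, which was higher in suspension. The letters TATAAA, the core of a TATA box, occurred on either strand of the 300-base windows of Snhg1, Snhg3 and Snhg7, 33.3% of the 9 hosts against 14.2% of all genes. None of the 9 windows held CATTCC, the M-CAT element bound by TEAD factors, which occurred in 14.7% of all windows, or CACGTG, an E-box, which occurred in 7.24%; that says only that these letters were not in these windows.

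The imprinted RNAs of the Dlk1-Dio3 region on chromosome 12 were lower in suspension and still lower than at the outset after re-plating. Meg3, a maternally expressed long noncoding RNA, read 14254 units in adherent, 5678 in non-adherent and 3896 in re-adherent cells with one probe, and 1693, 633 and 496 units with the other. Both probes put the adherent array highest. Their differences were -1.43 and -1.52 in suspension, and -1.61 and -1.51 in re-adherent against adherent cells, which is 3.04-fold and 2.84-fold lower. One more Meg3 probe, on another transcript and too dim for the rule, read 308, 67.5 and 120 units and recovered in part. Mirg, a long transcript farther along the same cluster that carries microRNAs, read 2513, 450 and 719 units. It was 5.98-fold lower in suspension and remained 2.91-fold lower in re-adherent cells, though its probe was 2.06-fold higher there than in suspension. Mirg and the Meg3 probe at 1693 units passed the signal rule through the adherent array only, so a high signal there was a condition of their entry.

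The paternally expressed coding genes at the ends of the same region moved the same way at much lower signal. Dlk1, a transmembrane protein that holds back adipocyte differentiation, read 214, 31.0 and 35.2 units with its brighter probe, a difference of -2.88 in suspension and -2.34 in re-adherent cells. Dio3, the deiodinase that inactivates thyroid hormone, read 443, 19.1 and 94.3 units, -4.63 in suspension and -1.97 in re-adherent cells. Rtl1 did not rise above background on any of the arrays. Imprinted RNAs of other regions differed among themselves. Kcnq1ot1, an imprinted antisense RNA with 2 probes too dim for the rule, was -1.07 and -1.18 in suspension and still -0.67 and -1.13 in re-adherent cells, so that it too was lower than at the outset. Peg13 read 3027, 3387 and 2524 units and stayed within 0.06 (log2) of the adherent level, and the brighter Airn probe, antisense to Igf2r, read 1266, 1371 and 647 units, unmoved in suspension (0.02) and lower on re-adhesion (-0.72). The dimmer Airn probe, outside the rule, disagreed in suspension with -1.03.

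RefSeq places 10 microRNA hairpins with 19 mature forms inside Mirg, and Mir770 inside Meg3. None of the microRNAs themselves was measured here, and a mature microRNA need not follow its host. Mirg and Meg3 are both lower in suspension, so a few of their products are printed for reference with bases 2 to 8, the seed, in capitals. The 19 mature forms of Mirg held 18 seeds, since miR-453 and miR-496a-5p share one.
mmu-miR-453, in Mirg, chr12:109735669-109735692, plus strand: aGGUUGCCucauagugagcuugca
mmu-miR-496a-5p, in Mirg, chr12:109739132-109739152, plus strand: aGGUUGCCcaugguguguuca
mmu-miR-410-3p, in Mirg, chr12:109743764-109743784, plus strand: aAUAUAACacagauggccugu
mmu-miR-770-5p, in Meg3, chr12:109563710-109563731, plus strand: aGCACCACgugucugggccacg
mmu-miR-22-5p, in Mir22hg, chr11:75463734-75463755, plus strand: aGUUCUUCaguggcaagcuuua
mmu-miR-22-3p, in Mir22hg, chr11:75463772-75463793, plus strand: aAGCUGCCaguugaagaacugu

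Mir22hg, the host of miR-22, a microRNA abundant in heart muscle, was the only one of 24 listed microRNA hosts with a probe among the 158. Of the 24, 10 were on the array under a matched accession. Mir22hg read 1490 units in adherent, 748 in non-adherent and 550 in re-adherent cells. The first step was 2.13-fold lower, and the second, at -0.08 (log2), was smaller than the technical error, so that both later arrays lay under the first. The Mir22hg probe passed the signal rule through the adherent array only, so a high signal there was a condition of its entry.

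Malat1 and NR_001592 took another course, near or above the adherent level in suspension and lowest after re-plating. Malat1, an abundant nuclear RNA of splicing speckles, read 4064 units in adherent, 7417 in non-adherent and 870 in re-adherent cells. That was 1.71-fold higher in suspension, then 6.62-fold lower, and 3.88-fold lower in re-adherent than in adherent cells. NR_001592 read 1283, 1762 and 125 units, 10.95-fold lower in the second step and 8.54-fold lower than the adherent level. Under 2-fold in suspension and over 2-fold lower on re-adhesion was the course of 4 of the 158 probes, 2.53%, and of 1.33% of the background; the other members were Slc2a4rg-ps and 1 probe of NR_002860. Of the 8 endothelial markers, 7 were also lower after re-plating than in the first adherent state, and their part in these values was not tested. The promoter window of Malat1 held none of the 6 motifs searched on both strands, which were the 3 spelled out above, TGANTCA (AP-1), TGACGTCA (CRE) and the CArG box by name; the last 3 occurred in 7.92%, 1.85% and 1.59% of all windows.

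**Figure D4:**
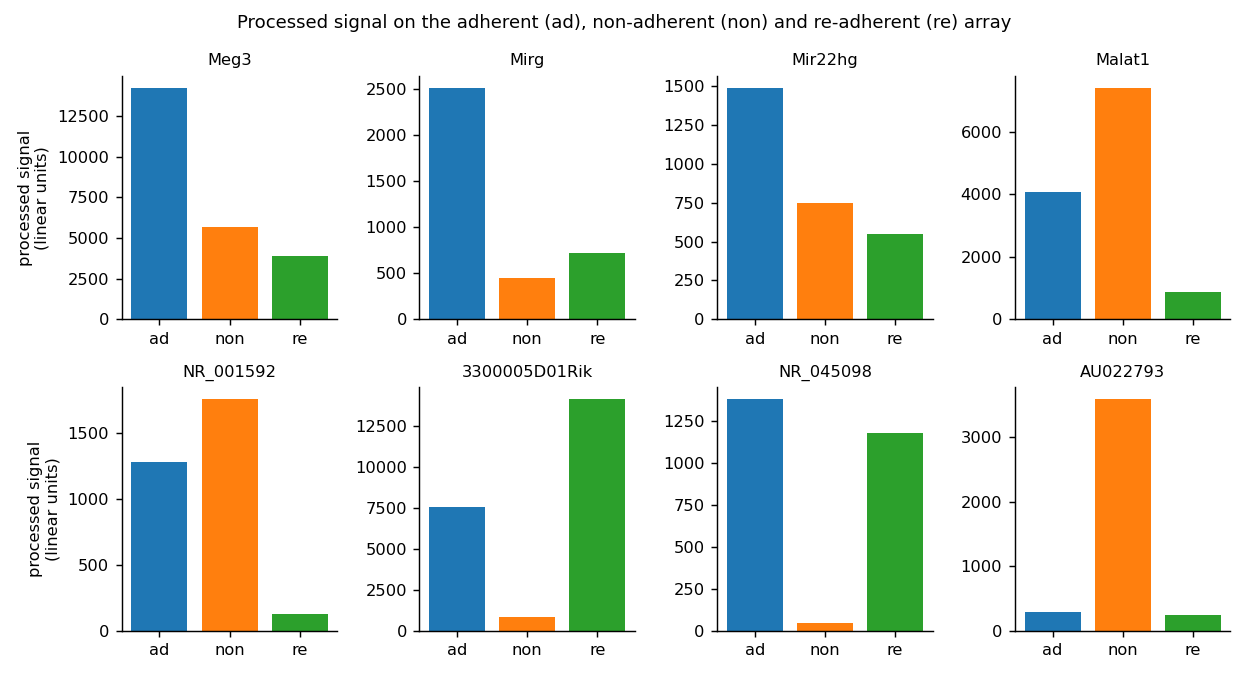
Processed signal in linear units (y axis, from 0, scaled for each panel) of 8 probes by state (ad, non and re for adherent, non-adherent and re-adherent), 1 array each. Meg3, Mirg and Mir22hg stay low on the re-adherent array, Malat1 and NR_001592 are lowest there at 870 and 125 units, 3300005D01Rik and NR_045098 dip in suspension, and AU022793 peaks there at 3590 units.

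Norad, Pvt1 and Lockd were close to their first level in re-adherent cells. Norad, a cytoplasmic RNA that binds Pumilio proteins, had 2 probes among the 158, at -0.01 and 0.33 in suspension and at 0.09 and -0.25 in re-adherent against adherent cells. Pvt1, the neighbour of Myc, read 1780, 873 and 1660 units, 2.18-fold lower in suspension and 2.45-fold higher on re-adhesion; Myc was -0.997 and 0.78. A dimmer Pvt1 probe outside the rule was -0.27 in suspension. Lockd, a transcript next to Cdkn1b, read 2473, 1026 and 2076 units, a difference of -1.37 and then 1.38, while Cdkn1b, a cell cycle inhibitor, was -0.13 and 0.06. Neighbours thus moved together in one pair and apart in the other.

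Structural RNAs were measured too, although the labelling kit primes from poly(A) tails, which these RNAs lack, so their signals are those of whatever was copied. Of 27 listed structural RNAs, 6 were on the array under a matched accession and 5 had a probe among the 158. Of these 5, 4 were lower in suspension, 1 of them over 2-fold, and all 5 were higher on re-adhesion, 3 of them over 2-fold. The background shares over 2-fold were 14.1% lower in suspension and 16.3% higher on re-adhesion. Outside the list, Rnu1b6 was -0.23 in suspension and 0.78 on re-adhesion, and Rn4.5s was -0.36 and 0.43. Rnu3b1, a copy of U3, the snoRNA that directs early cuts of the ribosomal precursor, read 4829, 1844 and 11347 units. It was 2.80-fold lower in suspension, 7.92-fold higher on re-adhesion and ended 2.83-fold above the adherent level, the highest of the 158 in that comparison. Rnu12, of the minor spliceosome, read 17674, 10170 and 19129 units, and Rn28s1, the large ribosomal RNA, 254672, 155791 and 264482 units. The step of Rn28s1 on re-adhesion, 1.13 (log2), was 0.35 under quantile normalization. Rmrp, the RNA of an endonuclease that also acts on ribosomal precursors, was 0.29 in suspension and 0.71 in re-adherent cells.

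The most suspension-sensitive noncoding probe was that of NR_045098, which read 1380 units in adherent, 45.5 in non-adherent and 1176 in re-adherent cells. It was 32.5-fold lower in suspension and 33.3-fold higher afterwards, or -5.02 and 5.06 (log2); with normexp background correction these were -3.70 and 3.63. 3300005D01Rik, a long noncoding RNA on chromosome 17, read 7526, 822 and 14134 units, 9.80-fold lower and then 22.1-fold higher, ending 2.26-fold above the first state. The pseudogene Gm8096 read 3098, 439 and 4569 units, and NR_033578 read 3509, 671 and 2244 units. All 4 were clearly lowest in suspension. They shared this course with the myofibroblast markers, 4 of 5 of which were lower in suspension and higher afterwards by over 5 on the log2 scale.

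On the side of gain, AU022793, a long noncoding RNA, read 285 units in adherent, 3590 in non-adherent and 247 in re-adherent cells, 11.8-fold higher and then 11.3-fold lower. NR_033803 read 656, 5134 and 402 units, and Gdap10 read 614, 2008 and 319 units. All 3 were high in suspension alone. Each passed the signal rule through the non-adherent array only, so a high signal there was a condition of its entry. The macrophage markers were also highest there, with a summed level of 947 against 167 and 329, and their part in these 3 values was not tested.

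Pseudogene probes were compared only where the gene they are named after was measured, so those with Gm names were not compared. Several of the compared probes ran beside that gene. Gpr137b-ps was 2.67 and 2.46 in suspension with its 2 probes, and Gpr137b, a lysosomal membrane protein, 2.55. H2-K2 was 1.99 and 2.00, and H2-K1, the class I antigen-presenting molecule of the same name, 1.96; on re-adhesion they were -2.06, -2.01 and -1.95. Pisd-ps1 was 1.03 and Pisd, a mitochondrial phospholipid enzyme, 1.07. Hmgb1-rs17 was -0.60 and Hmgb1, an abundant chromatin protein, -0.62. In suspension the 2 of each of these pairs differed by less than the technical error. On re-adhesion Gpr137b-ps was -1.61 and -1.63 and Gpr137b -1.84, slightly more than that error apart. Whether such a probe read the pseudogene or the parent transcript was not tested.

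Some pairs parted in size or direction. Rps4l was -1.90 in suspension and Rps4x, a ribosomal protein gene, -0.79. Tubb2a-ps2 was -1.52 there and Tubb2a -1.22. Pisd-ps3 was 1.83 where Pisd was 1.07. Tyms-ps was -1.45, and Tyms, the thymidylate synthase, -0.83. Hmga2-ps1 ran the opposite way from its gene: it read 448, 1614 and 643 units, while Hmga2, a chromatin protein of proliferating and mesenchymal cells, read 3957, 185 and 3673 units. The differences were 1.75 and -4.52 in suspension and -0.96 and 4.68 on re-adhesion. Macroh2a3 was -1.57 in suspension, and the histone gene Macroh2a1, related by name, was 0.11.

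**Figure D5:**
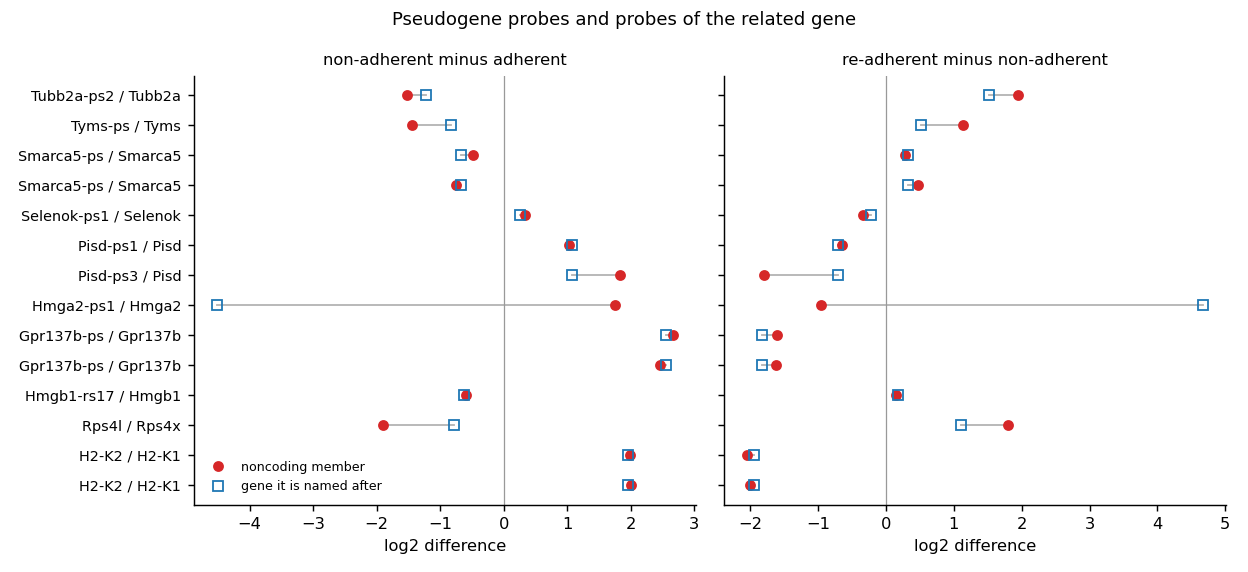
Log2 difference (x axis) of pseudogene probes (red circles) and of the gene each is named after (blue squares) in suspension at left and on re-adhesion at right, 1 row per member probe. Only pseudogenes with a measured gene of related name are shown. Most of these rows hold points close together, while Hmga2-ps1 at 1.75 and Hmga2 at -4.52 lie on opposite sides of zero in suspension.

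As a class, the 68 pseudogene probes had a median of -0.39 in suspension, with 11 over 2-fold lower (16.2%) and 8 higher (11.8%), against 14.1% and 16.2% of the background. Between re-adherent and adherent cells it was 0.32, with 1 lower and 1 higher. The 56 long noncoding RNA probes had a median of -0.31 in suspension, with 18 over 2-fold lower (32.1%) and 4 higher (7.14%). In re-adherent cells it was 0.01, with 8 lower and 1 higher. Of the long noncoding RNA probes, 14.3% were over 2-fold below the adherent level after re-plating, as were 16.7% of the 24 probes without a symbol, against 1.47% of pseudogene probes and 1.77% of the background. Of those lower probes outside the pseudogenes, only the brighter Meg3 probe, Dancr and an NR_002860 probe reached 1000 units on every array. The rest entered the set through arrays on which they were higher. The contrast between classes is thus not free of the selection rule, whose part was not tested. Among all noncoding probes at 1000 units or more on every array, 2.5% were over 2-fold lower, beside 0.594% of the background held to that limit. The pseudogene probes held many of the brightest signals, such as the 3 probes of Gm12070, which ranged from -0.37 to -0.22 in suspension and from 0.33 to 0.48 in re-adherent cells. The 4 probes of Gm6981 ranged from -0.41 to -0.21 and from 0.42 to 0.58.

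Probes of the same accession served as the only internal check. Of 22 accessions with more than 1 probe among the 158, 20 had probes of the same sign in suspension, 17 on re-adhesion and 18 between the re-adherent and adherent states. The median SD between their differences was 0.09, 0.07 and 0.06 (log2). The exceptions were large in 2 accessions. The 3 probes of NR_002860 were -2.06, -0.74 and 0.05 in suspension and 2.09, -0.01 and -1.20 on re-adhesion, so no single course can be given for it. The 3 probes of NR_002840 were all lower in suspension, at -1.35, -1.07 and -1.25, but on re-adhesion they were -0.19, -1.05 and 0.77; the brightest, at 15292, 6884 and 9134 units, was the one that came back in part. Gt(ROSA)26Sor, the only probe spotted 2 times, read 3489 and 3271 units on the adherent, 2916 and 2932 on the non-adherent and 2035 and 1942 on the re-adherent array.

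At the edge of the rule, 2610507I01Rik entered with a highest signal of 1008 units, Slc2a4rg-ps with 1011 and the dimmer Norad probe with 1045. Just outside were 4833422C13Rik at 997 units, Map2k3os at 956 and Zbtb11os1 at 951.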

How the data were processed

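Total RNA from adherent, non-adherent and re-adherent cardiac myofibroblasts had been hybridised, 1 array per state, to 1-colour Agilent SurePrint G3 mouse arrays. The deposited intensity values are processed signals from Agilent Feature Extraction 10.10.1.1, per the file headers, background-subtracted on a linear scale. The deposited value table holds the same signals times 1.52, 1.52 and 1.62 per array and was an alternative. Here, spots flagged as outliers were dropped, log2 signals were averaged per probe, and each array's 75th percentile over its 59305 non-control spots was subtracted (Python 3.11.15, pandas 2.3.3). Normexp correction (limma 3.58.1, offset 50) used the median signal and median background, since the files used here hold no mean signal column. Between 53.9% and 59.9% of spots were well above background. With 1 array per state no test was run, so the number of arrays limits precision. Named genes were drawn from the fixed lists and the partner genes. Others were among the 10 largest rises and falls in suspension or the 5 largest in the other comparisons. Not every gene that these rules allow was named. The genes named as threshold neighbours, by course, by probe disagreement, or as Lockd, Gm12070 and Gm6981, were chosen after their values were seen. The members and lists were chosen with earlier results of these data known. The calculation was tested on simulated data. NR_002840, NR_001592 and 15 other accessions have no match in the RefSeq table and were given no symbol. That table lists H19 and Gas5 under accessions that match no probe, so whether any of the 17 is an older accession of either was not settled, and none of the 17 could be placed in the gene lists. Alternatives are given in the closing section.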

Additional observations from a re-analysis of the deposited data

How the results depend on the processing

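No paired analysis was possible because each state had 1 array, and no array could be left out. Under quantile normalization the noncoding median was -0.15 in suspension and 0.13 on re-adhesion, 14.6% of probes were over 2-fold higher on re-adhesion and 0.633% were over 2-fold higher in re-adherent than adherent cells. Scaling to the E1A spike-in probes gave noncoding medians of -0.73 in suspension and -0.32 in re-adherent against adherent cells, beside background medians of -0.48 and -0.34, so that the re-adherent median changed sign. It put 37.3% over 2-fold lower in suspension (25.9% of the background), 15.8% lower and 0.633% higher in re-adherent cells (16.5% in all; background 5.64% and 0.645%), and 18.4% lower in suspension without a 2-fold return (background 12.5%). With no scaling the medians were 0.071 on re-adhesion and -0.10 in re-adherent against adherent cells, 13.9% were lower and 10.1% higher on re-adhesion, 12.7% lower and 0.633% higher in re-adherent cells (background 3.02% lower), and 8.86% were lost and regained (8.21%). The authors' values gave a median of 0.16 and 14.6% higher on re-adhesion, 0.633% higher in re-adherent cells and 10.8% lost and regained (background 10.5%, 1.58% and 8.84%). A signal minimum of 500 gave 3.08% higher in re-adherent cells (background 2.82%). One of 2000 gave 4.84% lower there (1.43%) and 4.84% lost without a 2-fold return (2.08%). Requiring 1000 units on all 3 arrays gave 5.83% higher in suspension, 4.17% lower on re-adhesion, and 2.5% lower and 4.17% past 2-fold in re-adherent cells. That limit also gave 4.17% lost without a 2-fold return. The background then held 10.8% higher in suspension, 7.47% lower on re-adhesion and 0.594% lower in re-adherent cells. Its share lost without a 2-fold return was 1.97%. Past 4-fold were 6.96%, 8.23% and 1.27% in suspension, on re-adhesion and in re-adherent against adherent cells, and past 1.5-fold 53.8%, 60.1% and 26.6% (background 51.1%, 51.9% and 15.2%). Of the 12 probes lost without a 2-fold return, between 10 and 12 kept that course under each of the 7 scaling, background or flag settings, chosen for this count after seeing the data. Of the 10 snoRNA hosts 9 were lower in suspension under every one of these, 7 by over 2-fold except for 9 with the spike-in, and 3 were over 2-fold lower in re-adherent cells except for 6 with the spike-in or no scaling; Snhg18, Snhg6 and 2410006H16Rik returned by over 2-fold under the main setting, and between 1 and 3 hosts did so under the others. Among the 135 differences of named members recomputed under these settings, those over 2-fold kept their sign; the named genes outside the 158 probes were not recomputed. No member's spot was found within a bright patch, so leaving such spots out changed nothing. The cause of these shifts was not tested.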

Other observations

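Noncoding transcripts of the same lists that did not reach 1000 units showed further courses. Mir17hg, the host of a microRNA cluster active in dividing cells, read 932 units in adherent, 426 in non-adherent and 194 in re-adherent cells, and so was lower in each step, by -1.23 and -0.77 (log2). Mir100hg read 465, 83.9 and 194 units. Dnm3os, the host of miR-199a and miR-214 in fibroblasts, read 387, 576 and 109 units with its brightest probe and was -2.04 on re-adhesion, below both earlier arrays. Morrbid, a noncoding RNA known from myeloid cells, read 804, 125 and 692 units, lowest in suspension where the macrophage markers were highest. The snoRNA hosts Snhg5 and Snhg17, at 509, 190 and 163 units and 572, 293 and 330 units, were both lower in suspension and stayed under the adherent level.

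The imprinted coding genes listed as neighbours were mixed in suspension. Slc22a18 was higher by 2.40 (log2) and Igf2r by 0.65, while Peg3 was -1.18 and -1.01 with its 2 probes. Mest, too, ran the opposite way from Dlk1 and Dio3 there. Its brightest probe read 227, 2320 and 62.5 units, a log2 difference of 3.26 in suspension and -4.85 on re-adhesion. The other 2 Mest probes moved the same way.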
